A study of Homo sapiens with 12 samples.

Results

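The control arrays of 2 lymphoma cell lines, Pfeiffer and OCI-Ly7, were compared with each other to describe how the lines differ before BCL6 knockdown. Each line had 3 control arrays, so 6 of the 12 arrays of the series were used and no BCL6 siRNA array entered the comparison. Both are established human lines of diffuse large B-cell lymphoma (DLBCL) of the germinal centre B-cell type (GCB), and the labels give B-cell as the cell type. The OCI-Ly7 controls are titled NTsiRNA, a non-target siRNA. The Pfeiffer controls are titled NTshRNA, whereas their descriptions and the design text name a non-target siRNA, and which of them the Pfeiffer cells received is not settled. Both lines had been kept in serum-supplemented IMDM medium and transiently transfected, and total RNA was taken 48 h later and measured on Affymetrix U133 Plus 2.0 arrays. No untransfected cells were analysed here. Each line descends from 1 tumour, so the values describe these lines and not a class of lymphoma. Line, tumour, culture and control label change together and cannot be told apart. The labels do not say whether the arrays of a line represent separate cultures. The p-values therefore reflect the spread among these samples and nothing wider, and that spread may be technical.

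Germinal centre B cells divide fast, edit their immunoglobulin genes and compete for antigen, and BCL6 is the transcriptional repressor that keeps them in this state. They leave it either as memory B cells or as plasma cells, which switch off much of the B cell programme and enlarge the endoplasmic reticulum to secrete antibody. Lymphomas of the germinal centre type keep many features of this stage, such as high BCL6 and CD10.

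Differences are given throughout as Pfeiffer minus OCI-Ly7 in log2(signal + 16), so a difference of 1 is 2-fold, and the constant of 16 understates the difference of dim genes. Of 19775 genes, each represented by 1 probe set, the 9888 with the higher line means were tested with limma on the 6 arrays, and a gene was called at a Benjamini-Hochberg adjusted p under 0.05. A gene bright in 1 line therefore passed this filter even where it was dim in the other, while a gene dim in both was left out, so counts of listed genes cover tested members only. Errors of differences are limma's moderated standard errors, and array signals carry no read depth, so the number of arrays limits the precision. Several members of a list are named below because they had the largest differences in it, and others, such as EBF1, HSPA5 and CXCR5, were chosen after their values were seen.

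The lines differed over most of the genes tested. In all, 7934 genes were called (80.2%), of which 4219 were higher in Pfeiffer (42.7%) and 3715 were lower (37.6%). A difference of at least 2-fold was found for 3463 of the called genes (35.0%), 1807 higher in Pfeiffer (18.3%) and 1656 lower (16.7%). The 3 arrays of one line lay entirely above the 3 of the other for 8149 genes (82.4%). With shares this high, a call by itself says little about a gene, so sizes are given. Counts of called members in the lists below are to be read beside these shares. At least 4-fold differences numbered 784 higher and 609 lower, at least 16-fold 239 and 140, and at least 64-fold 59 and 20. At the other end, 3848 genes (38.9%) lay within 0.5 of each other. The median difference of all genes tested was 0.06, the quartiles were -0.63 and 0.72, and the median size of a difference was 0.68, against a median SD among the arrays of a line of 0.10 in both lines. In Pfeiffer 61 genes were called higher whose signal was below 16 on all 3 OCI-Ly7 arrays, and 17 genes were called lower whose signal was below 16 on all 3 Pfeiffer arrays. A signal of 0 is the floor of the scale.

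**Figure D1:**
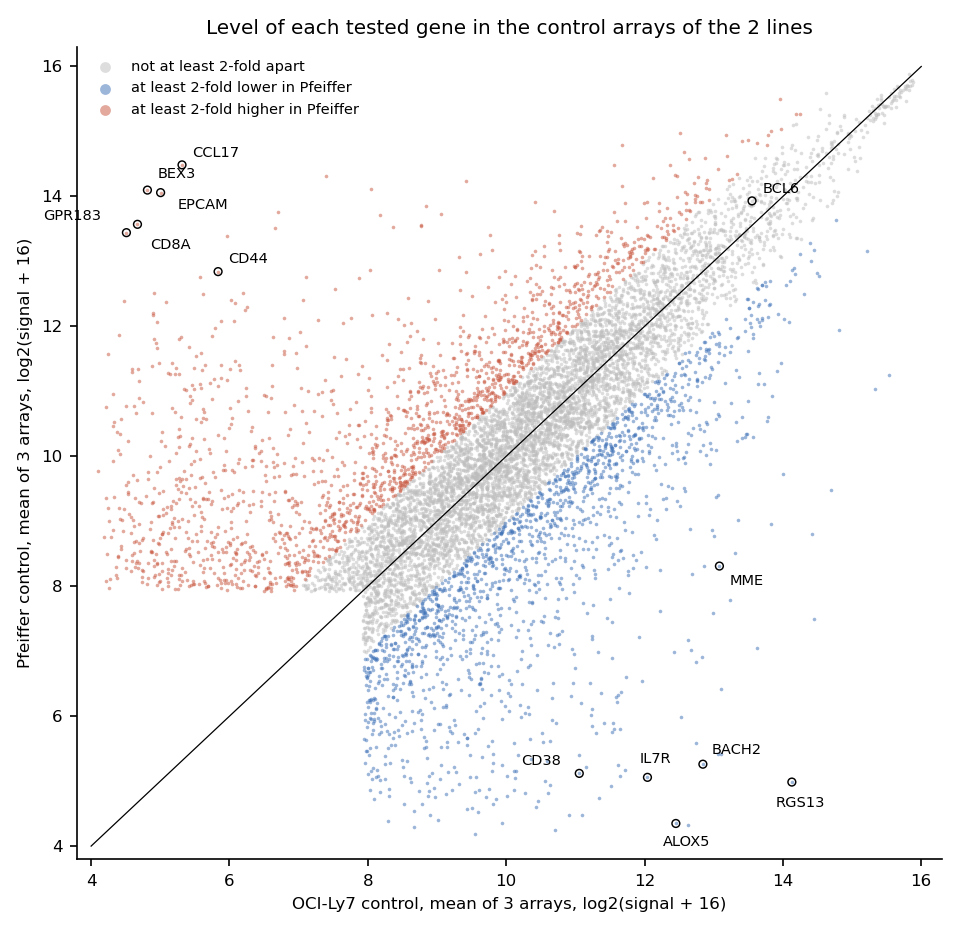
Mean level of each tested gene on the 3 OCI-Ly7 control arrays (x axis) and the 3 Pfeiffer control arrays (y axis), both in log2(signal + 16); the line marks equal levels. Red and blue points are genes called at least 2-fold higher or lower in Pfeiffer (genes of the Y chromosome, XIST and TSIX are not drawn), and BCL6 lies near the line while CCL17, EPCAM and RGS13 lie in the corners.

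All 6 arrays had a trimmed mean signal of 500 after the authors' scaling. The median signal was lower on the Pfeiffer arrays (71.4 to 74.9) than on the OCI-Ly7 arrays (83.2 to 84.7), and 22.7% to 23.0% against 21.5% to 22.1% of probe sets read below 16. After quantile normalization 1941 genes were at least 2-fold higher and 1504 lower. Over the tested genes the correlation between arrays was 0.988 to 0.991 within a line and 0.658 to 0.663 across the lines. Of the 2-fold genes, 1509 had a second probe set above the same filter level, and it went the same way for 1470 of them (97.4%). It was also at least 2-fold in that direction for 1217. Another 1200 of the 2-fold genes had only 1 probe set. A 2-fold difference was also found on the BCL6 siRNA arrays for 2863 genes in the same direction, which is 82.7% of the control list and 85.8% of the 3338 genes 2-fold apart on those arrays. The 1 gene that went the other way, ARMC9, differed by -1.85 between the controls and by 1.20 between the siRNA arrays, and was named after its values were seen.

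Some B cell identity genes were at high levels in both lines, although most tested B cell surface antigens were lower in Pfeiffer, as given further below. MS4A1, the CD20 antigen targeted by rituximab, read 14.42, 14.59 and 14.47 on the OCI-Ly7 arrays and 14.62, 14.61 and 14.66 on the Pfeiffer arrays. The difference of 0.14 ± 0.06, adjusted p = 0.0399 passed the threshold with no overlap between the lines, but the call ended on leaving out any 1 of 5 of the 6 arrays (all but OCI-Ly7 array 2), with adjusted p up to 0.129, and after quantile normalization (adjusted p = 0.21), without a filter or without a trend. Between the siRNA arrays it was -0.42. PAX5, the transcription factor that commits cells to the B lineage, read 12.03, 12.05 and 12.11 on the OCI-Ly7 arrays and 12.45, 12.61 and 12.38 on the Pfeiffer arrays, a difference of 0.41 ± 0.06, adjusted p = 0.000122. The mean of its probe sets differed by -0.04, and the siRNA arrays by -0.30, both without a call. CD79B, one of the paired signalling subunits beside surface immunoglobulin, was 0.35 higher by its brightest probe set, but its second went the other way (-1.44), as did the siRNA arrays (-0.75). Markers of other lineages are described further below.

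BCL6, the gene that the study targeted, was present at a high level in both lines. It read 13.50, 13.57 and 13.59 on the OCI-Ly7 arrays and 13.86, 13.92 and 14.01 on the Pfeiffer arrays. The Pfeiffer arrays all lay above the OCI-Ly7 arrays, and the difference was 0.38 ± 0.06, adjusted p = 7.6e-05, which is 1.3-fold. Its second probe set differed by 0.04, and on the siRNA arrays the sign was turned (-0.16). Among the corepressors and partners of BCL6, of 20 tested members (23 found) 8 were called higher and 8 lower, 2 and 4 by at least 2-fold, with a median difference of 0.12. TBL1X, a subunit of the SMRT and NCoR complexes, was lower (-1.93 ± 0.12, adjusted p = 5.75e-08). MTA3, the subunit through which BCL6 is linked to the NuRD complex, differed by -1.79, but by -0.26, without a call, by a probe set that does not bind related transcripts. STAT5A was higher (1.95 ± 0.52, adjusted p = 0.00519; 1.13 between the siRNA arrays), and BACH2, a repressor that works together with BCL6, was near the floor in Pfeiffer and is described below.

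The germinal centre genes were more often lower than higher in Pfeiffer. The 20 tested members (of 22 found) had a median difference of -0.80, with 5 called higher and 12 lower, and 2 and 9 at least 2-fold. Among all genes tested 42.7% were called higher and 37.6% lower. RGS13, a brake on chemokine receptor signalling in germinal centre B cells, read 14.01, 14.35 and 14.03 on the OCI-Ly7 arrays and 5.07, 4.29 and 5.60 on the Pfeiffer arrays. It was the most negative difference of all, -9.14 ± 0.26, adjusted p = 1.94e-10, and its second probe set differed by -7.71. MME, which encodes the CD10 antigen used to assign lymphomas to the germinal centre type, read 13.12, 13.06 and 13.06 on the OCI-Ly7 arrays and 8.24, 8.39 and 8.30 on the Pfeiffer arrays. All OCI-Ly7 arrays lay above all Pfeiffer arrays, with a difference of -4.77 ± 0.07, adjusted p = 2.41e-12, which is 27.3-fold. STAP1, an adaptor below the B cell receptor, differed by -6.69 and MYBL1, a MYB-family transcription factor, by -3.12 (-1.66 as the mean of its probe sets). LMO2, another marker of the type, went the other way by its brightest probe set (2.92), while its second, dim on all arrays, differed by -1.20. S1PR2 and P2RY8, receptors that hold B cells in the follicle, were within 0.5 of each other in the lines (0.11 and -0.08) and were not called, but S1PR2 was called between the siRNA arrays (0.40) and P2RY8 after quantile normalization (-0.18). SERPINA9 was too dim in both lines to be tested (means of 6.34 and 5.94).

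Surface antigens of B cells had the most negative median of the gene lists plotted further below. Calls were made for 6 members upwards and 20 downwards among 27 tested (32 found), 1 and 17 of them at least 2-fold, and the median difference was -2.47. The median moved to -1.61 with genes filtered by the mean of all 6 arrays, to -0.87 for the brightest genes and to -1.06 with cross-reacting probe sets left out. FCRLA, a Fc receptor-like protein of germinal centre B cells, read 13.57, 13.52 and 13.77 on the OCI-Ly7 arrays and 7.002, 7.44 and 6.70 on the Pfeiffer arrays, a difference of -6.57 ± 0.16, adjusted p = 5.41e-11. CD24, a heavily glycosylated surface protein, read 14.34, 14.44 and 14.50 on the OCI-Ly7 arrays and 8.87, 8.80 and 8.73 on the Pfeiffer arrays, a difference of -5.63 ± 0.06, adjusted p = 1.06e-12. CD38, an ectoenzyme of germinal centre and plasma cells, differed by -5.94 ± 0.24, adjusted p = 2.55e-09, and FCRL5 by -6.56 ± 0.14, adjusted p = 3.26e-11. For these 4 genes no array of one line reached the range of the other, and the brightest probe set of each was more than 32-fold lower in Pfeiffer. For FCRL5 the difference was -4.32 as the mean of its probe sets and -3.57 with cross-reacting probe sets left out. CD22, an inhibitory coreceptor that binds sialic acid, read 11.87, 11.92 and 11.91 on the OCI-Ly7 arrays and 8.82, 9.41 and 8.99 on the Pfeiffer arrays, a difference of -2.83 ± 0.13, adjusted p = 4.85e-09. CD79A, the other signalling chain of the receptor, read 13.34, 13.32 and 13.35 on the OCI-Ly7 arrays and 10.39, 10.08 and 10.23 on the Pfeiffer arrays, a difference of -3.10 ± 0.07, adjusted p = 5.47e-11. The second probe sets of both genes differed by -3.05 and -3.21. SLAMF7, an antigen of plasma cells, was the 1 member at least 2-fold higher in Pfeiffer (3.53 ± 0.38, adjusted p = 6.29e-06).

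**Figure D2:**
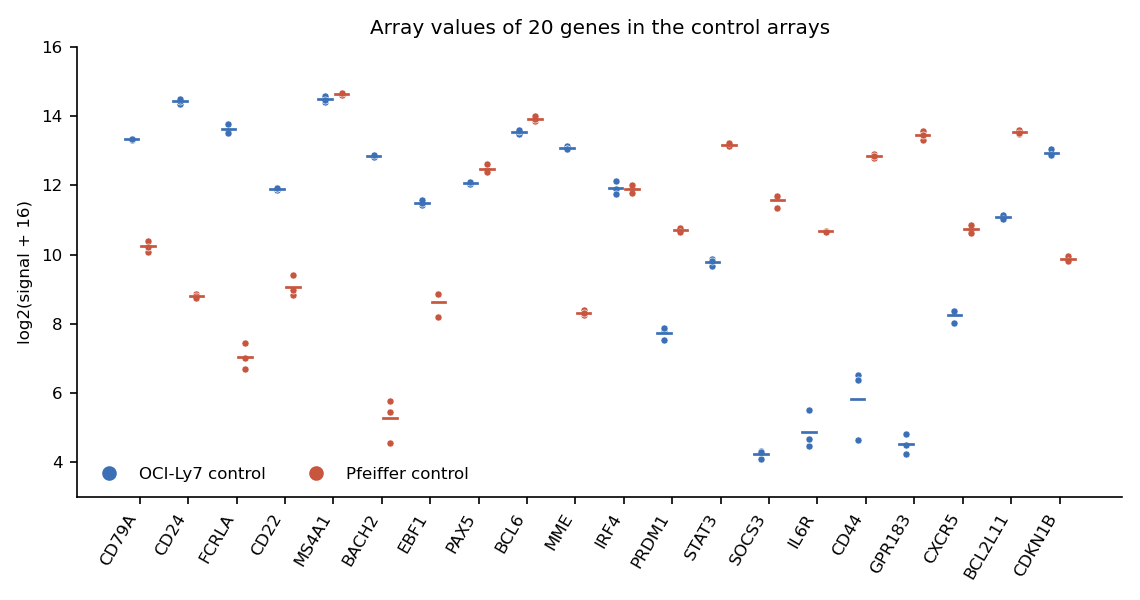
Levels of 20 genes on each control array, in log2(signal + 16) on the y axis, with OCI-Ly7 in blue and Pfeiffer in red; points are arrays and bars are the means of 3. The genes were chosen for their place in the text: MS4A1, BCL6 and IRF4 lie within 0.5 of each other, CD24 and BACH2 are high in OCI-Ly7, and SOCS3, CD44 and GPR183 are high in Pfeiffer.

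Among B cell transcription factors a median difference of -0.06 was found over 28 tested members (28 found), with 11 higher and 13 lower by the call, 3 and 10 at least 2-fold. BACH2, which delays plasma cell differentiation, read 12.84, 12.82 and 12.87 on the OCI-Ly7 arrays and 4.55, 5.78 and 5.45 on the Pfeiffer arrays. It differed by -7.58 ± 0.25, adjusted p = 5.43e-10, and its second probe set by -6.56. SOX11, known from mantle cell lymphoma and Burkitt lymphoma, read 10.37, 10.63 and 10.31 on the OCI-Ly7 arrays and 5.17, 4.44 and 4.18 on the Pfeiffer arrays, a difference of -5.84 ± 0.27, adjusted p = 6.1e-09. MEF2C, a MADS-box factor needed for B cell proliferation, read 11.57, 11.82 and 11.54 on the OCI-Ly7 arrays and 5.64, 6.42 and 5.37 on the Pfeiffer arrays, a difference of -5.84 ± 0.23, adjusted p = 2.16e-09. All 3 were high on every OCI-Ly7 array and near the lower end of the scale on every Pfeiffer array. The second probe set of MEF2C differed by -3.33. EBF1, an early B cell factor, differed by -2.87 ± 0.16, adjusted p = 2.58e-08 but was not near the floor in Pfeiffer (mean 8.63). FOXO1, which supports the germinal centre dark zone, differed by -2.37 ± 0.07, adjusted p = 3.25e-10. Higher in Pfeiffer was PRDM1, the factor BLIMP1 that drives plasma cell differentiation and that BCL6 represses. It read 7.52, 7.82 and 7.88 on the OCI-Ly7 arrays and 10.75, 10.76 and 10.66 on the Pfeiffer arrays, a difference of 2.98 ± 0.12, adjusted p = 2.12e-09, and its second probe set differed by 1.58. IRF4 read 11.90, 11.75 and 12.14 on the OCI-Ly7 arrays and 11.92, 11.77 and 12.01 on the Pfeiffer arrays. Its arrays overlapped, and the difference of -0.03 was not called (adjusted p = 0.789), while between the siRNA arrays of the lines it was 0.76. SPIB, an ETS factor, was not called by its brightest probe set (-0.10), but the mean of its probe sets was called higher (0.56) and the siRNA arrays were called lower (-1.60). MYC, a driver of growth, was lower in Pfeiffer (-0.64 ± 0.07, adjusted p = 7.11e-06).

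The immunoglobulin genes set the lines apart by heavy chain. IGHM, the constant region of IgM, read 15.23, 15.33 and 15.41 on the OCI-Ly7 arrays and 10.91, 11.16 and 11.03 on the Pfeiffer arrays, a difference of -4.30 ± 0.07, adjusted p = 6.5e-12. With cross-reacting probe sets left out the difference was -9.41. IGHD, the constant region of IgD, read 11.28, 11.39 and 11.36 on the OCI-Ly7 arrays and 4.57, 4.61 and 5.03 on the Pfeiffer arrays, a difference of -6.61 ± 0.18, adjusted p = 1.32e-10, and of -4.23 as the mean of its probe sets. In Pfeiffer the IgD signal lay near the floor. IGHG1 and IGHA1, the constant regions of IgG and IgA, were too dim to be tested in both lines (means of 6.22 and 6.39, and of 4.59 and 5.80). Probe sets with several gene symbols were left out, so these means do not show whether either line expresses IgG or IgA. The light chain genes IGKC and IGLC1 differed by 0.85 and 0.09 by the brightest probe set, the second without a call. The second probe set of IGKC differed by 4.64, and probe sets of these genes can bind related variable or constant regions. VPREB3, a relative of the surrogate light chain, was lower (-4.69 ± 0.20, adjusted p = 2.97e-09). Over the list 13 of 21 members found were tested, 4 were called higher and 7 lower in Pfeiffer, 0 and 6 of them by at least 2-fold, and the median difference was -0.83.

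The B cell receptor pathway was lower in part. Of 28 tested members (29 found) 8 were called higher and 17 lower, 3 and 8 by at least 2-fold, with a median difference of -0.47. The shares of all genes tested were 42.7% higher and 37.6% lower, and 18.3% and 16.7% by at least 2-fold. PRKCB, the protein kinase C that feeds receptor signals into NF-kB, was lower (-3.12 ± 0.09, adjusted p = 2.83e-10), as were BLK, a SRC-family kinase (-2.26 ± 0.08, adjusted p = 6.06e-10), and BTK, the target of ibrutinib (-0.89 ± 0.13, adjusted p = 9.19e-05). SYK and LYN, the kinases that act first at the receptor, were higher (0.79 ± 0.05, adjusted p = 1.44e-07 and 0.40 ± 0.06, adjusted p = 0.000115). Neither difference was called between the siRNA arrays (0.06 and 0.08), and the mean of the probe sets of SYK differed by 0.26. RASGRP3, which activates RAS below the receptor, had the largest difference upwards (2.83 ± 0.09, adjusted p = 3.65e-10; 1.01 by its second probe set). PTPN6, the phosphatase SHP-1, differed by -0.45, a call that ended without OCI-Ly7 array 2 (adjusted p = 0.0828) or Pfeiffer array 1 (adjusted p = 0.0824), after quantile normalization (adjusted p = 0.126) and without a filter.

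NF-kB is the transcription factor family through which B cells respond to CD40 and antigen. The list held its subunits, their regulators and target genes, and no value of a single subunit is given here. Its 25 tested members (of 28 found) had a median difference of 0.56, with 18 called higher and 3 lower, and 10 and 1 at least 2-fold. CD44, a hyaluronan receptor of activated B cells that BCL6 represses, read 4.62, 6.52 and 6.36 on the OCI-Ly7 arrays and 12.79, 12.90 and 12.84 on the Pfeiffer arrays, a difference of 7.01 ± 0.39, adjusted p = 2.8e-08. BCL2A1, a survival gene induced by NF-kB, read 9.39, 9.56 and 9.32 on the OCI-Ly7 arrays and 14.24, 14.20 and 14.27 on the Pfeiffer arrays, a difference of 4.81 ± 0.07, adjusted p = 2.41e-12. CCL22, a chemokine that attracts T cells, read 5.20, 4.79 and 4.69 on the OCI-Ly7 arrays and 9.37, 9.08 and 9.44 on the Pfeiffer arrays, a difference of 4.40 ± 0.25, adjusted p = 3.34e-08. The 3 genes were higher on every Pfeiffer array. CCL17, the other ligand of the same receptor CCR4, had the second largest difference upwards of all tested genes (9.17 ± 0.26, adjusted p = 1.73e-10). TNFAIP3, the A20 brake on the pathway, was lower (-1.28 ± 0.09, adjusted p = 1.25e-07; -0.72 between the siRNA arrays). TRAF3, a brake on the alternative pathway, was 4.13 higher by its brightest probe set and 0.72 by its second. Leaving out any Pfeiffer array made another probe set the brightest, and the difference was then 0.67 to 0.80.

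Genes tied to activated B cells were not all on one side. Calls were made for 10 members upwards and 7 downwards among 21 tested (22 found), 7 and 6 of them at least 2-fold, and the median difference was 0.06. CYB5R2, a reductase used to mark activated-type lymphoma, differed by 6.88 ± 0.27, adjusted p = 1.89e-09, and BATF, a partner of IRF4, by 4.84 ± 0.08, adjusted p = 7.76e-12. FOXP1 was 0.79 higher by its brightest probe set, and the mean of its probe sets was 0.19 without a call. IGHM, also used to mark the activated type, was lower as given above.

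**Figure D3:**
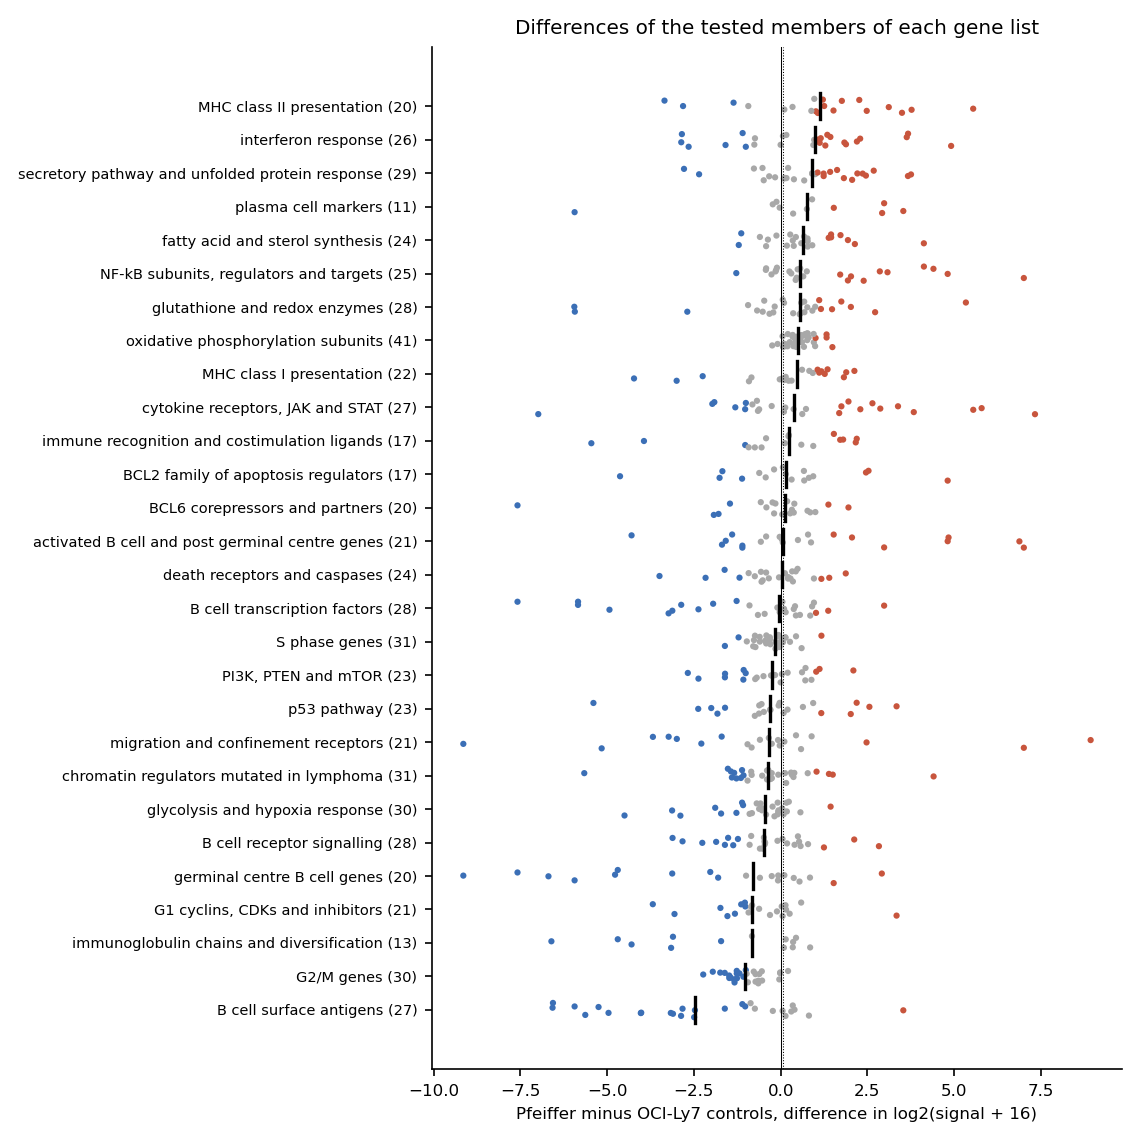
Difference of each tested member (points) of the larger gene lists, Pfeiffer minus OCI-Ly7 in log2(signal + 16) on the x axis. Numbers of tested members are in parentheses. Red and blue points were called at least 2-fold higher or lower in Pfeiffer, grey points were not, the thick black bars are list medians, the thin solid line is 0 and the dotted line is the median of all genes tested, 0.06; list medians run from 1.14 for MHC class II to -2.47 for B cell surface antigens.

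Cytokine receptors and the JAK and STAT proteins below them carry signals such as IL-6, IL-10 and IL-21 to the nucleus. A median difference of 0.37 was found over 27 tested members (32 found), with 14 higher and 10 lower by the call, 11 and 6 at least 2-fold. STAT3 read 9.68, 9.88 and 9.80 on the OCI-Ly7 arrays and 13.16, 13.13 and 13.22 on the Pfeiffer arrays. All Pfeiffer arrays lay above all OCI-Ly7 arrays, with a difference of 3.38 ± 0.06, adjusted p = 1.33e-11, and the second probe set differed by 3.99. IL6R, the receptor of IL-6, which signals through STAT3, read 4.46, 5.51 and 4.65 on the OCI-Ly7 arrays and 10.67, 10.68 and 10.64 on the Pfeiffer arrays, a difference of 5.79 ± 0.26, adjusted p = 5.49e-09. SOCS3, the feedback inhibitor that STAT3 induces, read 4.31, 4.10 and 4.30 on the OCI-Ly7 arrays and 11.36, 11.67 and 11.68 on the Pfeiffer arrays, a difference of 7.33 ± 0.18, adjusted p = 6.25e-11. Its second probe set differed by 1.38, and without any 1 Pfeiffer array another probe set became the brightest and gave 1.22 to 1.54. The siRNA arrays differed by 1.98. IL13RA1, a chain of the IL-4 and IL-13 receptor, differed by 5.55 ± 0.16, adjusted p = 2e-10. Lower in Pfeiffer was IL7R, the receptor of early lymphocytes, which read 11.99, 12.02 and 12.11 on the OCI-Ly7 arrays and 4.41, 5.10 and 5.66 on the Pfeiffer arrays, a difference of -6.98 ± 0.26, adjusted p = 1.19e-09. SOCS1, a JAK inhibitor often mutated in lymphoma, was lower (-1.02 ± 0.09, adjusted p = 9.46e-07; -0.55 as the mean of its probe sets). STAT6 was higher (0.62 ± 0.07, adjusted p = 8.74e-06; 0.30 as the mean of its probe sets), but not between the siRNA arrays (-0.18).

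Presentation of peptides on MHC class II molecules, by which B cells obtain T cell help, had the most positive median of the plotted lists. 20 of 22 members found were tested, 15 were called higher and 4 lower in Pfeiffer, 12 and 3 of them by at least 2-fold, and the median difference was 1.14. HLA-DQA1 read 8.27, 8.17 and 8.08 on the OCI-Ly7 arrays and 13.78, 13.66 and 13.72 on the Pfeiffer arrays, a difference of 5.55 ± 0.07, adjusted p = 1.6e-12, and its second probe set differed by 8.42. HLA-DQB1, its partner chain, read 10.50, 10.44 and 10.33 on the OCI-Ly7 arrays and 13.96, 13.91 and 13.88 on the Pfeiffer arrays, a difference of 3.50 ± 0.06, adjusted p = 6.5e-12, and of 8.13 with cross-reacting probe sets left out. HLA-DRA, the alpha chain of HLA-DR, read 14.54, 14.60 and 14.72 on the OCI-Ly7 arrays and 15.57, 15.50 and 15.70 on the Pfeiffer arrays, a difference of 0.97 ± 0.07, adjusted p = 1.82e-07. Most HLA-D genes vary between people, and whether the probes match the alleles of each line was not tested. CIITA, the master coactivator of class II genes, read 7.48, 8.002 and 8.16 on the OCI-Ly7 arrays and 10.13, 10.20 and 10.11 on the Pfeiffer arrays, a difference of 2.27 ± 0.17, adjusted p = 2.66e-07, but its second probe set differed by -0.21 and the mean of its probe sets by 1.39. CTSB, a lysosomal protease, was higher (3.77 ± 0.33, adjusted p = 1.25e-06), though its second probe set differed by 1.16 and the mean of its probe sets by 2.24. The other direction was taken by HLA-DOB, which restrains peptide loading by HLA-DM. It read 11.80, 11.82 and 11.87 on the OCI-Ly7 arrays and 8.64, 8.47 and 8.35 on the Pfeiffer arrays, a difference of -3.35 ± 0.09, adjusted p = 1.06e-10, with -1.73 by its second probe set.

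In the class I pathway, which shows peptides to CD8 T cells, of 22 tested members (25 found) 13 were called higher and 5 lower, 8 and 3 by at least 2-fold, with a median difference of 0.47. With cross-reacting probe sets left out there were 6 higher and 6 lower of 17 with a median of -0.03. B2M, the shared light chain, differed by 0.15 and was not called (adjusted p = 0.0853). It was called after quantile normalization (0.22, adjusted p = 0.00462), with array weights, with a replicate block (adjusted p = 0.0127) and without OCI-Ly7 array 3 (0.22). NLRC5, the class I coactivator, was lower (-2.25 ± 0.09, adjusted p = 2.97e-09), as were ERAP2, a peptide-trimming enzyme (-2.997 ± 0.14, adjusted p = 5.77e-09; -4.91 by its second probe set), and CD1D, which presents lipids (-4.23 ± 0.37, adjusted p = 1.19e-06). PDIA3, a member of the peptide-loading complex, was higher (2.13 ± 0.05, adjusted p = 2.86e-11). Among ligands and receptors that other immune cells recognise, the 17 tested members (of 28 found) had a median difference of 0.23, with 8 called higher and 6 lower, and 5 and 3 at least 2-fold. The sign turned under some alternatives: the median was -0.12 when probe sets were averaged and -0.09 between the siRNA arrays. CD48 read 13.21, 13.10 and 13.40 on the OCI-Ly7 arrays and 7.91, 7.56 and 7.87 on the Pfeiffer arrays, a difference of -5.45 ± 0.11, adjusted p = 1.67e-11, and its second probe set differed by -2.38. TNFSF8, the CD30 ligand, differed by -3.94 ± 0.16, adjusted p = 2.16e-09. CD58, the ligand of CD2 on T and NK cells that is often lost in lymphoma, was higher (2.16 ± 0.18, adjusted p = 6.64e-07; 1.22 as the mean of its probe sets), and so was the inhibitory receptor BTLA (2.19 ± 0.22, adjusted p = 4.08e-06). TNFRSF14, the partner of BTLA, was not called (0.24, adjusted p = 0.126) except after quantile normalization (0.40) or without a trend, and CD274, PD-L1, was too dim in both lines to be tested.

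Interferon response genes, which antiviral signals and STAT proteins switch on, were found on both sides. Calls were made for 15 members upwards and 8 downwards among 26 tested (39 found), 13 and 6 of them at least 2-fold, and the median difference was 1.002. The counts depended on the filter, which a gene could pass through Pfeiffer alone: filtering by the mean of all 6 arrays gave 11 higher and 8 lower of 24 with a median of 0.33, the upper 0.25 of genes 4 higher and 4 lower of 9 with a median of 0.07, and no filter 15 higher and 9 lower of 39 with a median of 0.32. IFIT5 read 4.53, 4.29 and 4.79 on the OCI-Ly7 arrays and 9.48, 9.54 and 9.33 on the Pfeiffer arrays, a difference of 4.91 ± 0.25, adjusted p = 1.34e-08, and PARP9 and HERC6 differed by 3.67 ± 0.29, adjusted p = 4.87e-07 and 3.63 ± 0.36, adjusted p = 3.24e-06. The second probe sets of IFIT5, PARP9 and HERC6 differed by 2.68, 1.303 and -0.35. TRIM22, a restriction factor, was the member with the most negative difference (-2.86 ± 0.07, adjusted p = 1.12e-10; -4.41 between the siRNA arrays). On the siRNA arrays 8 members were at least 2-fold higher and 8 at least 2-fold lower, with a median of 0.21.

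**Figure D4:**
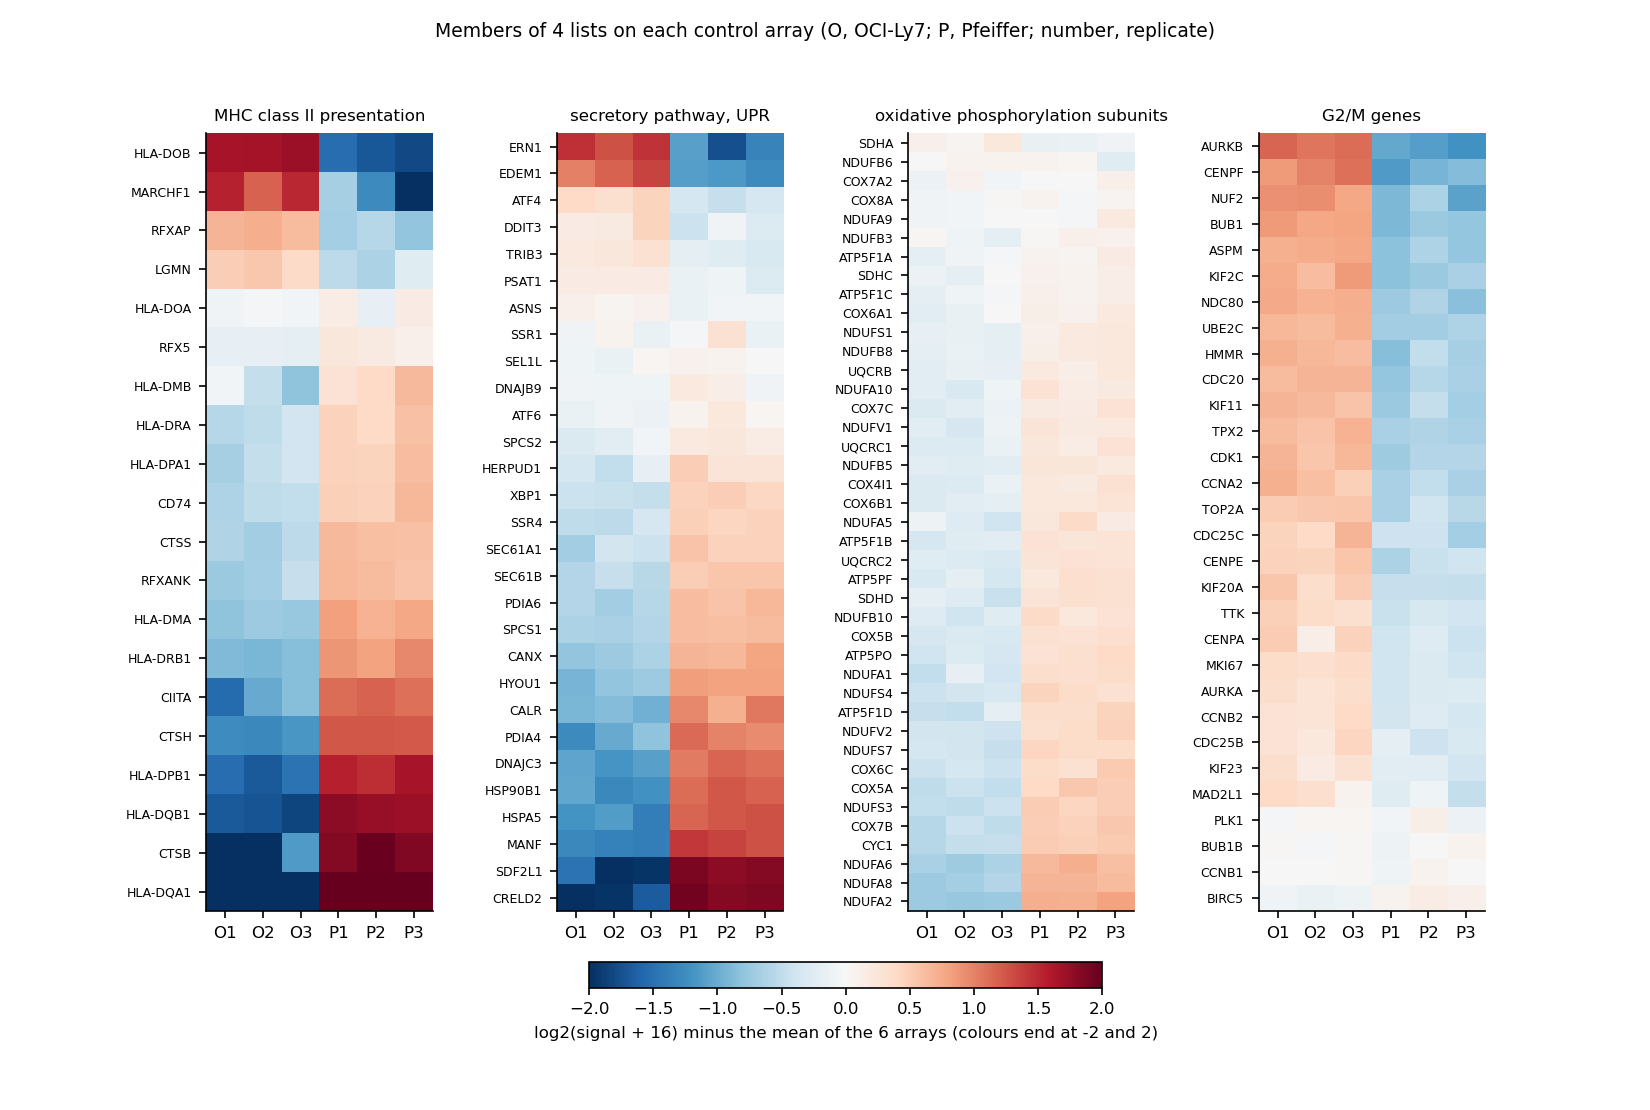
Level of each tested member of 4 lists on each control array, as log2(signal + 16) minus the mean of the 6 arrays (colour scale, ending at -2 and 2); columns are arrays (O, OCI-Ly7; P, Pfeiffer; the number is the replicate) and each panel is sorted by the difference between the lines. Most MHC class II, secretory pathway (UPR, unfolded protein response) and oxidative phosphorylation genes are red on all 3 Pfeiffer arrays, and most G2/M genes are blue there, with HLA-DOB and ERN1 at the opposite end of their lists.

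Proteins bound for the cell surface or for secretion are folded in the endoplasmic reticulum (ER), whose chaperones are raised by the unfolded protein response. A median difference of 0.91 was found over 29 tested members (29 found), with 19 higher and 7 lower by the call, 13 and 2 at least 2-fold. When probe sets were averaged the median was 0.38. HSPA5, the chaperone BiP, read 12.56, 12.63 and 12.37 on the OCI-Ly7 arrays and 14.92, 14.98 and 15.03 on the Pfeiffer arrays, a difference of 2.46 ± 0.07, adjusted p = 1.63e-10. HSP90B1, the ER form of HSP90, read 11.20, 10.95 and 11.03 on the OCI-Ly7 arrays and 13.35, 13.49 and 13.43 on the Pfeiffer arrays, a difference of 2.36 ± 0.07, adjusted p = 2.17e-10. CRELD2, a small ER stress protein, read 9.18, 9.22 and 9.53 on the OCI-Ly7 arrays and 13.12, 13.03 and 13.05 on the Pfeiffer arrays, a difference of 3.76 ± 0.09, adjusted p = 4.99e-11. In each case the lowest Pfeiffer array was above the highest OCI-Ly7 array. SDF2L1 and MANF, further ER proteins induced by stress, differed by 3.67 ± 0.13, adjusted p = 9.64e-10 and 2.68 ± 0.06, adjusted p = 2.32e-11. The lectin chaperones CALR and CANX differed by 1.82 and 1.43. ERN1, the sensor IRE1 that splices XBP1 messenger RNA, was lower in Pfeiffer (-2.78 ± 0.17, adjusted p = 5.64e-08; -1.80 as the mean of its probe sets). XBP1 itself was 0.91 higher by its brightest probe set and differed by -0.23 by its second. These arrays do not separate spliced from unspliced XBP1.

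Promoters of ER chaperone genes are known for the ER stress response element, which is bound by ATF6 together with NF-Y. The promoters of the 5 members that were at least 2-fold higher in Pfeiffer and held this element are shown because they belong to the group just described. The element was searched for as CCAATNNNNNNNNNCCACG on both strands of the window from 250 bases before to 50 bases after each gene's start (RefSeq, GRCh38.p14). It was found in 5 of 12 such members with a promoter in the table (41.7%), in 1 of the 16 other tested members (6.25%), XBP1, and in 22 of all 27305 promoters (0.081%). Among all genes tested 13 of 8209 promoters held it (0.158%). Of all genes at least 2-fold higher, 6 of 1474 promoters held it (0.41%), and the 5 members above are among these 6. Of those at least 2-fold lower, 1 of 1302 did (0.077%). The element is in capitals below, on either strand, and every sequence runs 5′ to 3′ on the gene's strand. A match describes the letters of the reference genome, not binding in these cells.
HSPA5, chr9:125241351-125241450, minus strand: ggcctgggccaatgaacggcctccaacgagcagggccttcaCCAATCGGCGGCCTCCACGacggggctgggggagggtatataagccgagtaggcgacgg
HSP90B1, chr12:103930206-103930349, plus strand: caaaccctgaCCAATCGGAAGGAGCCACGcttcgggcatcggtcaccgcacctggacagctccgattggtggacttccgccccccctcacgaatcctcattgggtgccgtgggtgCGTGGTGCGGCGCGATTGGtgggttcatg
CALR, chr19:12938359-12938458, plus strand: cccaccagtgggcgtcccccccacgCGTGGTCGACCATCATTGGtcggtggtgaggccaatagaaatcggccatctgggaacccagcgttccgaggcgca
CANX, chr5:179698737-179698836, plus strand: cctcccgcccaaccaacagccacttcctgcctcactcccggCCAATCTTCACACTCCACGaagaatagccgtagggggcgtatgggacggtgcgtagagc
CRELD2, chr22:49918513-49918612, plus strand: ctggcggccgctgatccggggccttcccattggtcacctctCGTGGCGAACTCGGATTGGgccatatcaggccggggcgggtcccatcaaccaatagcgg

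The 5 genes differ in how the element lies in the window. In HSPA5 and CANX it lies in the forward orientation and starts 66 and 151 bases before the gene's start. In CALR and CRELD2 it is reversed. HSP90B1 holds 1 copy of each orientation, and its promoter is the 1 of the 5 with 2 copies.

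Plasma cell markers were partly higher as well. 11 of 12 members found were tested, 7 were called higher and 1 lower in Pfeiffer, 4 and 1 of them by at least 2-fold, and the median difference was 0.76, or 0.36 when probe sets were averaged. TNFRSF17, the receptor BCMA of plasma cells, read 11.48, 11.44 and 11.76 on the OCI-Ly7 arrays and 14.49, 14.46 and 14.51 on the Pfeiffer arrays, a difference of 2.92 ± 0.08, adjusted p = 1.19e-10. CD38, in contrast, was lower in Pfeiffer as given above, and SDC1, the CD138 antigen that defines plasma cells, was too dim to be tested in both lines (means of 5.90 and 6.25). The summed signal of the 12 markers found was 54782 to 65540 on the OCI-Ly7 arrays and 103311 to 108195 on the Pfeiffer arrays. Its part in the secretory pathway differences was not tested.

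Subunits of oxidative phosphorylation, the mitochondrial machinery that makes ATP, differed little but mostly in one direction. Of 41 tested members (42 found) 36 were called higher and 1 lower, 4 and 0 by at least 2-fold, with a median difference of 0.51. Averaging of probe sets left 21 of 40 called higher and 3 lower, with a median of 0.45. Quantile normalization gave 33 higher and 3 lower, with a median of 0.41. NDUFA8 and NDUFA6, subunits of complex I, differed by 1.32 ± 0.05, adjusted p = 1.82e-09 and 1.32 ± 0.05, adjusted p = 1.79e-09, and CYC1, cytochrome c1 of complex III, by 1.01 ± 0.05, adjusted p = 8.72e-09. NDUFA2 had the largest difference of the list (1.49), but its second probe set differed by -0.76 and the mean of its probe sets was not called (0.27). Glycolysis and hypoxia genes leaned the other way. The 30 tested members (of 33 found) had a median difference of -0.47, with 5 called higher and 18 lower, and 1 and 8 at least 2-fold. Between the siRNA arrays the median was -0.05. ADM, adrenomedullin, a target of hypoxia-inducible factors, read 12.72, 12.60 and 12.74 on the OCI-Ly7 arrays and 8.50, 7.95 and 8.11 on the Pfeiffer arrays, a difference of -4.50 ± 0.12, adjusted p = 1.47e-10. SLC2A3, a glucose transporter, differed by -3.13 ± 0.22, adjusted p = 2.23e-07. PFKFB4, a regulator of glycolytic flux, differed by -2.89 ± 0.09, adjusted p = 3.35e-10, and PDK1, a kinase that inhibits pyruvate dehydrogenase, by -1.89 ± 0.07, adjusted p = 1.11e-09. These 4 genes were lower on every Pfeiffer array.

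Fatty acid and sterol synthesis was higher for most members. Calls were made for 18 members upwards and 5 downwards among 24 tested (25 found), 7 and 2 of them at least 2-fold, and the median difference was 0.63. The median was 0.36 with cross-reacting probe sets left out and 0.25 between the siRNA arrays. FADS2, a desaturase of polyunsaturated fatty acids, read 6.75, 6.31 and 6.60 on the OCI-Ly7 arrays and 10.63, 10.58 and 10.83 on the Pfeiffer arrays, a difference of 4.13 ± 0.15, adjusted p = 1.24e-09, and its second probe set differed by 1.85. ACACA, acetyl-CoA carboxylase, was 2.14 higher and FASN, fatty acid synthase, 1.94 higher, but the second probe sets differed by 0.48 and -0.61. MVD, an enzyme of the mevalonate pathway, differed by 1.72 ± 0.14, adjusted p = 5.5e-07. Enzymes of glutathione and redox metabolism were on both sides. A median difference of 0.56 was found over 28 tested members (32 found), with 15 higher and 10 lower by the call, 7 and 3 at least 2-fold. For the upper 0.25 of genes the median was 0.10. MGST1, a microsomal glutathione transferase, read 11.05, 11.20 and 11.21 on the OCI-Ly7 arrays and 4.80, 5.10 and 5.74 on the Pfeiffer arrays, a difference of -5.95 ± 0.23, adjusted p = 1.5e-09, and of -2.43 with cross-reacting probe sets left out. TXNIP, which binds thioredoxin and restrains glucose uptake, read 12.83, 12.71 and 12.96 on the OCI-Ly7 arrays and 6.57, 7.19 and 6.95 on the Pfeiffer arrays, a difference of -5.93 ± 0.14, adjusted p = 5.75e-11. GPX7, a peroxidase of the ER, read 5.78, 6.54 and 5.69 on the OCI-Ly7 arrays and 11.36, 11.35 and 11.33 on the Pfeiffer arrays, a difference of 5.34 ± 0.20, adjusted p = 1.59e-09. MGST1 and TXNIP were high on every OCI-Ly7 array and low on every Pfeiffer array, and GPX7 was the reverse.

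Mitotic genes were lower in Pfeiffer with few exceptions. 30 of 30 members found were tested, 1 was called higher and 26 lower in Pfeiffer, 0 and 16 of them by at least 2-fold, and the median difference was -1.04. AURKB, a kinase of chromosome segregation, read 12.45, 12.36 and 12.40 on the OCI-Ly7 arrays and 10.26, 10.18 and 10.07 on the Pfeiffer arrays, a difference of -2.23 ± 0.06, adjusted p = 1.93e-10. CENPF, NUF2 and BUB1, proteins of the kinetochore, differed by -1.96, -1.74 and -1.61. The difference of BUB1 was -0.83 between the siRNA arrays. Genes of DNA replication differed less. Of 31 tested members (31 found) 5 were called higher and 17 lower, 1 and 2 by at least 2-fold, with a median difference of -0.15. LIG1, a DNA ligase, differed by -1.61 and GINS3, a part of the replicative helicase, by 1.18. How fast the lines divided is not given in the labels.

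The regulators of G1 were mostly lower. The 21 tested members (of 25 found) had a median difference of -0.82, with 2 called higher and 13 lower, and 1 and 8 at least 2-fold. Among all genes tested 42.7% were called higher and 37.6% lower. CDKN1B, the inhibitor p27, read 13.06, 12.89 and 12.87 on the OCI-Ly7 arrays and 9.89, 9.95 and 9.81 on the Pfeiffer arrays, a difference of -3.06 ± 0.07, adjusted p = 3.37e-11. CDKN1A, the inhibitor p21, which p53 and others induce and BCL6 represses, read 5.42, 5.60 and 5.76 on the OCI-Ly7 arrays and 9.23, 8.59 and 8.97 on the Pfeiffer arrays, a difference of 3.34 ± 0.24, adjusted p = 2.55e-07. Both inhibitors separated the lines on every array, in opposite directions. CCND3, the D-type cyclin of germinal centre cells, was lower (-1.74 ± 0.07, adjusted p = 3.07e-09), and CCND2 was too dim in both lines to be tested. CDKN2A, the p16 and ARF locus, was lower (-1.32 ± 0.07, adjusted p = 1.68e-08) but bright in both lines. Its neighbour MTAP differed by -1.02 by its brightest probe set. Without OCI-Ly7 array 3 another probe set became the brightest and gave -0.29 with no call (adjusted p = 0.0683). Genes of the p53 pathway were on both sides. Calls were made for 8 members upwards and 12 downwards among 23 tested (26 found), 5 and 5 of them at least 2-fold, and the median difference was -0.29. TP53INP1, a stress-induced p53 target, read 12.92, 12.88 and 13.16 on the OCI-Ly7 arrays and 7.59, 7.74 and 7.45 on the Pfeiffer arrays, a difference of -5.39 ± 0.10, adjusted p = 1.22e-11 (-3.11 as the mean of its probe sets), while TP53I3 was higher (2.56 ± 0.17, adjusted p = 1.08e-07). MDM4, an inhibitor of p53, was lower (-2.38 ± 0.08, adjusted p = 5.42e-10).

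The BCL2 family decides whether mitochondria release cytochrome c. A median difference of 0.15 was found over 17 tested members (21 found), with 8 higher and 7 lower by the call, 3 and 4 at least 2-fold. Among the inhibitors of death, BCL2A1 was much higher in Pfeiffer as given above, MCL1 was higher (0.68 ± 0.05, adjusted p = 3.42e-07), and BCL2L1 was not called (0.07, adjusted p = 0.489), though it was between the siRNA arrays (0.34). BCL2, often raised by translocation in this lymphoma type, was too dim to be tested in both lines (means of 6.69 and 7.36). Its second probe set, dim as well, went the other way (-1.81, means of 7.52 and 5.71). Among the triggers, BCL2L11, known as BIM, read 11.08, 11.13 and 11.03 on the OCI-Ly7 arrays and 13.50, 13.60 and 13.52 on the Pfeiffer arrays, a difference of 2.46 ± 0.05, adjusted p = 2.43e-11, and BID was higher (2.53 ± 0.05, adjusted p = 1.87e-11). HRK, another trigger, read 11.71, 11.55 and 11.32 on the OCI-Ly7 arrays and 7.12, 6.73 and 6.84 on the Pfeiffer arrays, a difference of -4.63 ± 0.14, adjusted p = 2.83e-10. The triggers named thus lay in both directions. Of the death receptors and caspases 24 of 28 members found were tested, 9 were called higher and 11 lower in Pfeiffer, 3 and 4 of them by at least 2-fold, and the median difference was 0.04. TNFRSF1A, the receptor of TNF, was lower (-3.49 ± 0.25, adjusted p = 2.34e-07), as were APAF1, the scaffold of the apoptosome (-2.16 ± 0.13, adjusted p = 4.32e-08; -1.39 by its second probe set), and FAS (-0.74 ± 0.08, adjusted p = 4.08e-06; -1.13 by its second). CASP6, an executioner caspase, was higher (1.88 ± 0.12, adjusted p = 8.87e-08; 1.18 between the siRNA arrays).

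Chromatin regulators that lymphomas mutate were more often lower than higher. Of 31 tested members (33 found) 11 were called higher and 19 lower, 4 and 9 by at least 2-fold, with a median difference of -0.35. HDAC9, a class IIa deacetylase, read 11.10, 11.03 and 11.03 on the OCI-Ly7 arrays and 5.38, 5.74 and 5.06 on the Pfeiffer arrays, a difference of -5.66 ± 0.19, adjusted p = 5.42e-10. Its second probe set differed by -2.40, and the mean of its probe sets by -2.15. TET2, which oxidises methylated cytosine, read 4.65, 5.44 and 4.54 on the OCI-Ly7 arrays and 9.40, 9.24 and 9.21 on the Pfeiffer arrays, a difference of 4.41 ± 0.28, adjusted p = 9.48e-08, with 1.61 by its second probe set. By the brightest probe set HDAC9 lay near the floor in Pfeiffer and TET2 in OCI-Ly7. EZH2, the histone methyltransferase of germinal centre cells, differed by -0.39 (adjusted p = 0.000179). KMT2D, a methyltransferase that activates enhancers, was lower (-1.27 ± 0.09, adjusted p = 1.9e-07; -0.76 by its second probe set). CREBBP, an acetyltransferase that opposes BCL6, differed by -0.29, while the mean of its probe sets was -0.01 and not called. The 2 de novo DNA methyltransferases went opposite ways, DNMT3A by 1.502 and DNMT3B by -1.52.

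The PI3K and mTOR genes were on both sides. The 23 tested members (of 26 found) had a median difference of -0.24, with 7 called higher and 12 lower, and 3 and 7 at least 2-fold. Of the tested members 13.0% were at least 2-fold higher and 30.4% at least 2-fold lower, against 18.3% and 16.7% of all genes tested. PHLPP1, a phosphatase that switches off AKT, differed by -2.67, but its second probe set by -0.04. INPP5D, the lipid phosphatase SHIP1, was lower (-1.61 ± 0.10, adjusted p = 5.87e-08). RRAGD, which ties mTOR to amino acids, was 2.10 higher, with 0.21 by its second probe set.

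Receptors that place B cells within lymphoid tissue contained some of the largest differences. Calls were made for 6 members upwards and 12 downwards among 21 tested (28 found), 3 and 7 of them at least 2-fold, and the median difference was -0.34. GPR183, known as EBI2, moves activated B cells out of the follicle centre and is a gene that BCL6 represses. It read 4.81, 4.48 and 4.24 on the OCI-Ly7 arrays and 13.30, 13.58 and 13.45 on the Pfeiffer arrays, a difference of 8.93 ± 0.16, adjusted p = 9.55e-12. CXCR5, which draws B cells into the follicle, read 8.03, 8.38 and 8.37 on the OCI-Ly7 arrays and 10.72, 10.86 and 10.62 on the Pfeiffer arrays, a difference of 2.48 ± 0.12, adjusted p = 9.11e-09. ITGA4, an integrin chain for VCAM1, read 9.85, 9.87 and 9.70 on the OCI-Ly7 arrays and 4.39, 4.12 and 5.43 on the Pfeiffer arrays, a difference of -5.16 ± 0.33, adjusted p = 7.87e-08. Each of the 3 separated the lines on every array. CXCR4, the dark zone chemokine receptor, differed by -0.34 ± 0.05, adjusted p = 0.000154.

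Beyond the lists, the most positive differences included genes known mainly from other tissues. BEX3, a small adaptor of the brain, read 4.36, 4.97 and 5.11 on the OCI-Ly7 arrays and 14.03, 14.13 and 14.12 on the Pfeiffer arrays and had the most positive difference of all tested genes (9.28 ± 0.17, adjusted p = 1.17e-11). EPCAM, an epithelial adhesion molecule, read 5.44, 4.24 and 5.34 on the OCI-Ly7 arrays and 14.04, 14.03 and 14.11 on the Pfeiffer arrays, a difference of 9.05 ± 0.25, adjusted p = 1.78e-10. CD8A, a coreceptor of cytotoxic T cells, read 4.91, 4.52 and 4.58 on the OCI-Ly7 arrays and 13.56, 13.49 and 13.66 on the Pfeiffer arrays, a difference of 8.90 ± 0.13, adjusted p = 2.73e-12. All 3 were near the floor on the OCI-Ly7 arrays. The others of the 15 most positive were IL32, a cytokine (7.91), the RAS relative RRAS2 (7.61), the motor protein MYO6 (7.47), SERPINF1 (7.43), HTATIP2 (7.31), the cancer testis antigen MAGEA6 (7.28), DCBLD1 (7.28), the kisspeptin receptor KISS1R (7.18) and HACD4 (7.12), beside CCL17, GPR183 and SOCS3 given above. The second probe set of HACD4 differed by 0.16 and that of DCBLD1 by 4.56, and the mean of the probe sets of HTATIP2 by 4.10.

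Among the 15 most negative, ALOX5, the 5-lipoxygenase that starts leukotriene synthesis, read 12.36, 12.52 and 12.48 on the OCI-Ly7 arrays and 4.65, 4.22 and 4.17 on the Pfeiffer arrays, a difference of -8.10 ± 0.16, adjusted p = 1.92e-11. With a pseudocount of 1 another probe set became the brightest and gave -4.41. GASK1B, a Golgi protein, read 12.62, 12.77 and 12.47 on the OCI-Ly7 arrays and 4.37, 4.16 and 4.45 on the Pfeiffer arrays, a difference of -8.29 ± 0.15, adjusted p = 1.14e-11, and its second probe set differed by -5.06. SMAD1, a transcription factor of BMP signalling, read 12.72, 12.72 and 12.80 on the OCI-Ly7 arrays and 6.38, 4.19 and 6.18 on the Pfeiffer arrays, a difference of -7.17 ± 0.44, adjusted p = 6.81e-08. These genes too were near the floor on all arrays of one line, here Pfeiffer. The others were RCSD1 (-7.68), ZNF385B (-7.64), the protein kinase A subunit PRKAR2B (-6.95), the troponin TNNI1 (-6.62) and the G protein subunit GNG2 (-6.58), beside RGS13, BACH2, IL7R, STAP1, IGHD, FCRLA and FCRL5 given above. The second probe sets of GNG2 and RCSD1 differed by -3.46 and -4.29.

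Because T cell and epithelial genes were among these, the markers of other cell types were examined. Of the 15 T cell markers found, 9 were too dim to be tested, among them CD3D, CD3E and CD3G, the chains that define T cells. The 9 read at most 7.24 on any OCI-Ly7 array and 6.91 on any Pfeiffer array. The summed signal of all 15 was 12725 to 14034 on the OCI-Ly7 arrays and 19644 to 21597 on the Pfeiffer arrays. CD8A alone made up most of the Pfeiffer sum. Besides CD8A, the genes CD8B and CD247 were higher in Pfeiffer by their brightest probe sets (5.23 and 5.34), but their second probe sets differed by -0.56 and 0.12. LCK, a T cell kinase also found in some B cells, was lower (-3.28 ± 0.09, adjusted p = 1.36e-10). Of 9 natural killer cell markers 7 were too dim to be tested, and the summed signal was 559 to 646 in OCI-Ly7 and 1172 to 1252 in Pfeiffer, where GZMB, granzyme B, was higher (3.54 ± 0.33, adjusted p = 1.82e-06). None of 10 myeloid markers was bright enough to be tested, and their summed signal was 388 to 482 and 276 to 520. Of 15 stromal and epithelial markers 11 were too dim. Their summed signal, with all 15 counted, was 1579 to 1921 in OCI-Ly7 and 17922 to 19139 in Pfeiffer. EPCAM and KRT18 (1.88) were at least 2-fold higher in Pfeiffer, and EPCAM alone made up most of the Pfeiffer sum. Of the other tested markers, COL1A1, a collagen chain, was 0.48 higher with overlapping arrays (adjusted p = 0.0386, at most 0.149 on leaving out 1 array and above the threshold for 4 of the 6), and PECAM1, an antigen of endothelium and leukocytes, was lower in Pfeiffer (-3.29 ± 0.18, adjusted p = 2.08e-08). KRT19 and CDH1, defining genes of epithelium, had means of 5.35 and 4.71 in Pfeiffer, and LYZ and CD14, defining genes of myeloid cells, 5.61 and 5.40. Shares of cells and amounts of RNA in each cell cannot be told apart on these arrays.

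Neighbouring genes on a chromosome were also set side by side. The 9862 tested genes with a place in the RefSeq gene table were taken in order, and the median difference was computed over every run of 11 neighbours, 9632 runs in all. Those medians centred on 0.06, and 95% lay between -1.01 and 1.04. The run with the most positive median, 4.06, holds the related ARMCX, BEX and TCEAL genes. In it 10 of 11 genes were called higher and 8 by at least 2-fold, among them BEX4 (5.64), TCEAL9 (6.27) and ARMCX5 (4.89, or 3.15 by its second probe set), while ARMCX3 was lower (-0.36). ARMCX6 was 0.33 higher by its brightest probe set, and the mean of its probe sets was -0.37 without a call. Members of such families share sequence, so their probe sets may not be independent. The run of FASN, RAC3 (3.61) and DCXR (2.07) had a median of 1.95, and 10 of its 11 genes were called higher, with none called lower. The run with the most negative median, -3.17, holds FCRL5, FCRL3 (-2.49), FCRL2 (-3.17, or -2.06 as the mean of its probe sets), FCRL1 (-5.25), CD1D and CD1C (-3.42). These 6 immune genes were all at least 2-fold lower, as was PYHIN1 (-4.23), whereas MRPL24 (0.30) and PRCC (0.73) in the run were called higher. HDGF and ETV3, also in the run, were not called (-0.04 and -0.16). HDGF was called between the siRNA arrays (-0.21) and ETV3 without Pfeiffer array 3 (-0.24). In the run that starts with TXNIP, 11 of 11 genes were called lower, 9 by at least 2-fold, with a median of -2.46. When probe sets were averaged, ACP6 in this run was not called (-0.15), and LINC00869 differed by -1.13 in place of -2.66. The run around SOX2 (-5.65, or -3.66 between the siRNA arrays) and its overlapping transcript SOX2-OT (-3.54) had a median of -1.99, and the run of HDAC9 and its neighbours -2.52. Whether copy number differs between the lines was not tested.

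**Figure D5:**
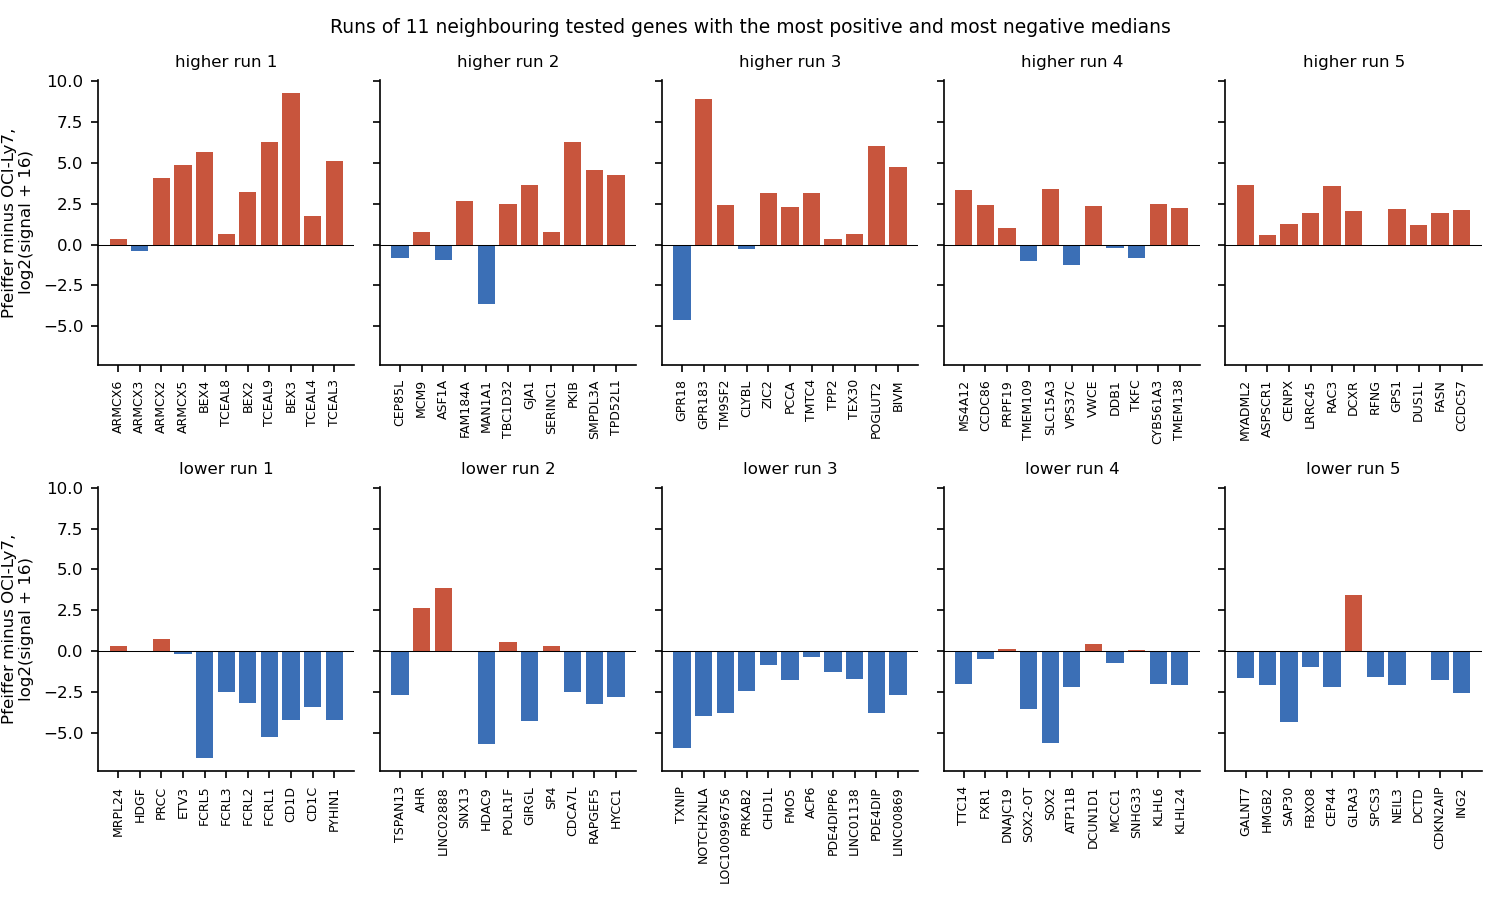
Difference of each gene (bars, Pfeiffer minus OCI-Ly7 in log2(signal + 16) on the y axis) in the 5 runs of 11 neighbouring tested genes with the most positive median (upper row) and the 5 with the most negative (lower row), in the order of the RefSeq gene table. In the first upper run BEX3 has the tallest bar (9.28) and in the first lower run FCRL5 the deepest (-6.56), and most runs also hold genes of the other sign.

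Promoters of genes that differed most held fewer CG pairs. The ratio of CG pairs observed to those that the base composition gives was computed over the same promoter window for 8209 tested genes, with a median of 0.85, and 8.41% of promoters were below 0.4. Of the promoters of genes within 0.5 of each other 5.31% were below 0.4, against 10.7% and 15.4% of those at least 2-fold higher or lower in Pfeiffer. Among genes at least 16-fold higher the share was 16.2% of 191 promoters, and among those at least 16-fold lower it was 38.8% of 103. No methylation was measured in this series.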

How the data were processed

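Total RNA from the OCI-Ly7 and Pfeiffer controls was hybridised to U133 Plus 2.0 arrays, 3 per line. The deposited table holds log2 values of 54675 probe sets, and per the submitters' processing notes they come from MAS5 run through affy, without versions. On the linear scale the mean of every array, trimmed by 2% at both ends, was 500, so the authors had scaled the arrays to one level. No further normalization was applied here. Because MAS5 subtracts the signal of mismatch probes, dim probe sets are noisy. Probe sets were named from GEO's platform annotation of 2016: 41091 had 1 gene symbol and were used, 1801 had several, 11721 had none and 62 were controls. Of these, 41037 had a gene identifier listed by RefSeq (GRCh38.p14), and 0 symbols changed.

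Values were turned into log2(signal + 16). For each of 19775 genes the probe set brightest on average over the 6 arrays was kept. The upper 0.5 of genes by the higher line mean was tested, which gave 9888 genes and a minimum level of 7.93 (a signal of 227). The test was limma (lmFit and eBayes with a trend, 4 residual and a median of 6.35 prior degrees of freedom), two-sided, Benjamini-Hochberg adjusted over all genes tested at 0.05. An exact two-sided permutation test of 3 arrays against 3 cannot go below 0.1, so none is given for single genes. The script was tested on simulated data. The comparison, the gene lists and the genes to be named were chosen with earlier results of these data known. Lists are described by counts and medians, without a test of the list. Genes named are the 15 most positive and 15 most negative called differences among genes whose arrays did not overlap between the lines. XIST, TSIX and genes of the Y chromosome were left out of these rankings and of the runs of neighbours. Also named are up to 4 members of a list with the largest difference and the genes of 10 runs of neighbours. To these come 53 fixed genes, of which 5 were not analysed here, and genes chosen after their values were seen. The alternatives covered the normalization (quantile), the pseudocount (1 or 64), the filter on dim genes, the treatment of several probe sets, the limma model (no trend, array weights, a replicate block, all 12 arrays or a 2-fold minimum), the BCL6 siRNA arrays in place of the controls, and each array left out in turn, with the probe set chosen anew each time. The tools were Python 3.11.15 (pandas 2.3.3, numpy 2.4.6, matplotlib 3.10.9) and R 4.3.3 (limma 3.58.1 with the data.table package, version 1.17.8).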

Additional observations from a re-analysis of the deposited data

How the results depend on the processing

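The counts of called and of 2-fold genes stayed within 1.5 times under every alternative except those with fewer genes or a harder test. With the upper 0.25 of genes alone, 4256 were called, 2337 higher and 1919 lower, and 1706 were at least 2-fold apart, 898 higher and 808 lower. Tested against a 2-fold minimum, 2584 genes were called, 1369 higher and 1215 lower. Of the genes named, the direction turned for ARMCX6 (-0.37), CD79B (-0.23), MCM9 (-0.19), PAX5 (-0.043) and SPIB (0.56) when a gene's probe sets were averaged. Between the BCL6 siRNA arrays it turned for ARMCX6 (-0.051), BCL6 (-0.16), CD79B (-0.75), IRF4 (0.76), MS4A1 (-0.42), PAX5 (-0.30), STAT6 (-0.18) and, named after its values were seen, ARMC9 (1.20), and there the arrays themselves differ; the cause was not tested. The medians of 7 lists (activated B cell genes, B cell transcription factors, class I presentation, immune recognition ligands, death receptors and caspases, BCL6 corepressors and T cell markers) changed sign under 1 to 4 alternatives, all from a value within 0.5 of 0 apart from T cell markers (2.64 to -0.19 when probe sets were averaged). Replicate numbers did not pair the samples: deviations of arrays with the same number correlated at -0.02, 0.03 and 0.03. With the number as a replicate block 7926 genes were called, 4213 higher and 3713 lower, and 3463 were at least 2-fold apart. Depth is not defined for arrays, and dim probe sets and the number of arrays limit the precision.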

Other observations

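Cancer testis antigens, proteins normally restricted to the testis that some tumours express, were dim in both lines for 18 of the 24 members found. A median difference of 4.46 was found over 6 tested members (24 found), with 4 higher and 2 lower by the call, 4 and 2 at least 2-fold. A gene dim in OCI-Ly7 passed the filter through Pfeiffer, and over all 24 members without a filter the median was 0.09, while a filter on the mean of all 6 arrays left 2 higher and 1 lower of 3 with a median of 6.31. MAGEA6 read 4.65, 5.59 and 4.44 on the OCI-Ly7 arrays and 12.19, 12.26 and 12.09 on the Pfeiffer arrays, a difference of 7.28 ± 0.25, adjusted p = 8.29e-10 by limma. SSX1 read 5.43, 6.85 and 6.32 on the OCI-Ly7 arrays and 12.51, 12.47 and 12.54 on the Pfeiffer arrays, a difference of 6.31 ± 0.27, adjusted p = 4.05e-09, and MAGEA12 differed by 3.30 ± 0.30, adjusted p = 1.54e-06. SSX3 differed by 5.61 ± 0.23, adjusted p = 2.74e-09, and by 3.74 when Pfeiffer array 3 was left out and another probe set became the brightest. The 2 lower members, named after their values were seen, were TEX14 (-2.64 ± 0.38, adjusted p = 7.38e-05) and SPA17 (-1.52 ± 0.17, adjusted p = 1.13e-05). The OCI-Ly7 arrays were near the floor for MAGEA6 and MAGEA12. Genes of these families are nearly identical, and which copy a probe set measured was not tested. MT2A, a metallothionein that binds zinc and copper, was lower in Pfeiffer (-2.39 ± 0.12, adjusted p = 1.21e-08), and among the metallothioneins 5 of 8 members found were tested, 0 were called higher and 2 lower in Pfeiffer, 0 and 1 of them by at least 2-fold, and the median difference was -0.50, or -0.02 over all 8 without a filter.

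Further runs of neighbouring genes held differences in both directions. GPR183 lies in a run with a median of 2.40, beside POGLUT2, a glucosyltransferase of the ER (6.01 ± 0.21, adjusted p = 7.41e-10), and BIVM (4.75 ± 0.34, adjusted p = 2.3e-07; 2.98 as the mean of its probe sets). In the same run GPR18, a receptor of lymphocytes next to GPR183, was lower in Pfeiffer. It read 10.81, 10.99 and 11.01 on the OCI-Ly7 arrays and 6.06, 6.35 and 6.51 on the Pfeiffer arrays, a difference of -4.63 ± 0.15, adjusted p = 4.89e-10. GPR183 and GPR18 thus differed in opposite directions on every array. In the run of HDAC9, AHR, the aryl hydrocarbon receptor, read 5.94, 6.45 and 5.45 on the OCI-Ly7 arrays and 8.74, 8.57 and 8.48 on the Pfeiffer arrays, a difference of 2.65 ± 0.28, adjusted p = 5.08e-06, while CDCA7L was lower (-2.52 ± 0.06, adjusted p = 6.25e-11). GJA1, the gap junction protein connexin 43, was higher (3.66 ± 0.33, adjusted p = 1.67e-06) in a run with a median of 2.49, and MAN1A1, a mannosidase of the Golgi in that run, was lower (-3.66 ± 0.10, adjusted p = 1.63e-10).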
